A study of Canis lupus familiaris with 33 samples.

Results

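Mitosis is the step in which a cell separates its duplicated chromosomes into daughter cells. Cyclin-dependent kinases start it, further kinases shape the spindle and guard the attachment of chromosomes to it, and the anaphase-promoting complex ends it by marking cyclins and other proteins for destruction. Most genes of this machinery are transcribed late in the cell cycle, so in tissue they are widely read as a measure of how many cells divide, and they are known to be high in many carcinomas.

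The genes described here are 42 named genes of mitotic entry, mitotic kinases, kinetochore, spindle and chromatid separation, chosen by name and matched to the symbol column of the deposited tables. By symbol, 36 of the 42 were found among 25096 genes, of which 12202 carry a symbol. CCNB1 and PTTG1 were found only through the gene identifier that the table pairs with them, and their values are given apart from the 36. CENPF, SPC25, ESPL1 and RACGAP1 were not analysed here. According to the RefSeq annotation of another canine assembly, used for names and order alone, the 38 found genes lie on 18 chromosomes. KIF20A and CDC25C are the only close neighbors, with CDC23 and GFRA3 between them.

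RNA sequencing was carried out on invasive urothelial carcinoma (iUC), a bladder cancer that arises naturally in pet dogs, and on normal canine bladder. The 29 tumors were high-grade, treatment-naive iUC taken by cystoscopic biopsy, with 1 tumor per dog, of any age, sex or breed. The study reports a high epithelial cellularity for all of them. The 4 normal samples were bladder mucosa freed by fine dissection from the full-thickness bladder of dogs euthanized for reasons other than bladder disease. Tumor or normal and the way of collection therefore cannot be told apart. All 33 samples were sequenced in the same batch. The age and genotype of each dog are not given in the sources used here. Each deposited value is the log2 of a TMM-normalized expression level minus the median of that gene over the 33 samples, so values compare samples within a gene and not genes with each other, and a value of 0 is the middle sample. The depth of a library cannot be read from these values.

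Some facts of the whole series bear on the comparison with normal mucosa. The 8 urothelial markers found of 12 listed had median values of -2.06 to -0.74 in the normals and -1.04 to 0.91 in the tumors, and 5 of them rose, among them EPCAM and CDH1, where 17.6% of genes without a shared lowest value were called higher. By the DESeq-normalized values, deposited as a second scaling, 3 rose, and PPARG and KRT19, the latter chosen after its values were seen, were no longer called. The 3 smooth muscle markers found of 7 fell in tumors, where ACTG2 had a log2 fold change of -7.05, and their median was 5.56 to 7.41 in the normals against -0.93 to 4.41 in the tumors. The 4 fibroblast markers found and the Schwann cell marker CDH19 fell as well, where 45.8% of all genes were called lower. None of the 4 endothelial or 4 T cell markers passed the test, although TEK and CD3D were called lower by the DESeq-normalized values. Of 3 B cell markers found, MS4A1 fell and 2 were not called. Of 2 macrophage markers found, CD68 rose and 1 was not called. Between 755 and 1019 genes were at a lowest value shared by several samples in a normal and 3699 to 8175 in a tumor, and no mitosis gene had such a shared lowest value. The part of tissue makeup in the differences below was not tested; in bulk RNA, fewer dividing cells and less mitotic RNA per cell cannot be told apart.

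The first comparison asked whether the mitosis genes differed between iUC and normal mucosa. They were higher in tumors almost without exception: 35 of 36 rose at least 2-fold with an adjusted p of at most 0.05, none fell, and CDC25B did not pass. Over all genes tested with the same fit (limma with Benjamini-Hochberg adjustment), 10.7% of 24471 were called higher and 45.8% lower. Among the 14638 genes that, like the mitosis genes, have no shared lowest value, 17.6% were called higher and 18.6% lower. For the 36, the median log2 fold change was 2.35, or 5.10-fold, against -0.84 over all genes and 0.31 over genes without a shared lowest value. In the DESeq-normalized table the median over all genes moved to -1.11, every one of the 36 fold changes was 0.30 lower on the log2 scale, and 34 of 36 were still called higher, against 5.62% of all genes called higher and 49.1% lower. Among the fold changes of all genes tested, 18 of the 36 lay above the 99th percentile and 31 above the 95th. The genes tested include those with a shared lowest value.

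**Figure D1:**
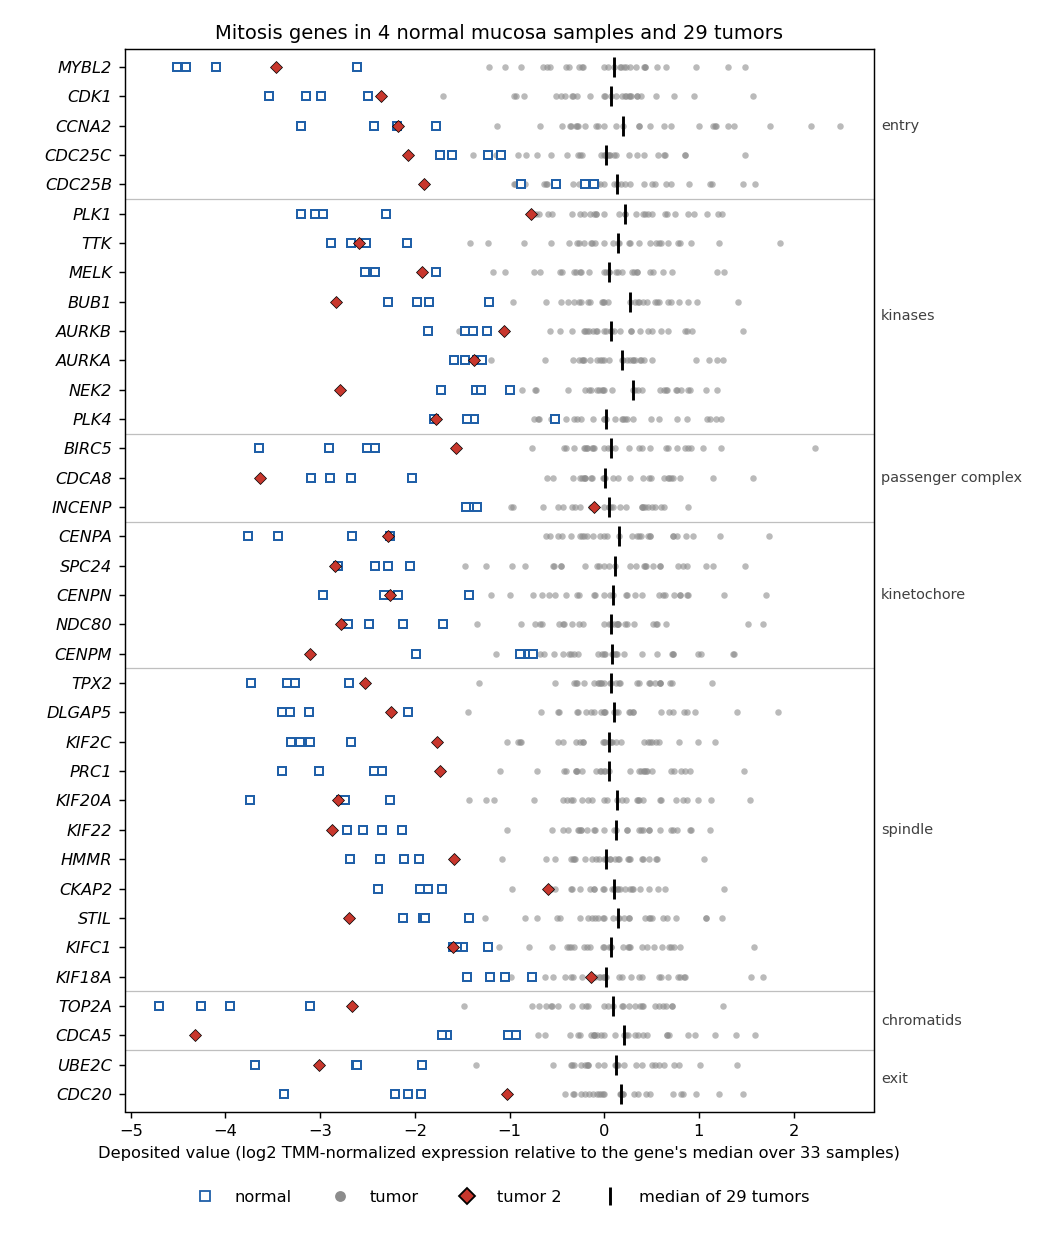
Deposited log2 values relative to the median of each gene (horizontal axis) of the 36 mitosis genes (vertical axis, grouped by role) in 4 normals (open squares), 29 tumors (gray dots, tumor 2 as a red diamond) and the median of the 29 tumors (black bar). The normals lie left of nearly all tumors, and tumor 2 lies among or below the normals in 23 of the 36 genes.

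The genes of mitotic entry were higher in 4 of 5 cases. CDK1, the kinase whose activation starts mitosis, had values of -2.49, -3.00, -3.15 and -3.54 in normals A to D, and a lowest, median and highest tumor of -2.35, 0.07 and 1.57. Every tumor was above every normal, and the difference was 2.95 ± 0.396 (log2 fold change ± SE, 4 normals and 29 tumors; limma adjusted p = 5.47e-08), or 7.72-fold. CCNA2 encodes cyclin A2, a partner of CDK1 before and at the start of mitosis. It was at -1.77, -2.44, -3.20 and -2.19 in the normals and at -2.17, 0.20 and 2.49 in the lowest, median and highest tumor. It rose by 2.75 ± 0.50 (limma adjusted p = 1.13e-05) with 28 of 29 tumors above every normal, and its spread among tumors was the widest of the 36 apart from CDCA5 (SD 0.997, n = 29). MYBL2, a transcription factor that switches on late cell cycle genes, stood at -2.62, -4.41, -4.51 and -4.10 in the normals and ran from -3.47 through 0.10 to 1.49 in the tumors. Its rise of 3.83 ± 0.482, or 14.3-fold, was exceeded only by TOP2A (limma adjusted p = 1.39e-08).

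The CDC25 phosphatases, which remove the inhibitory phosphates from CDK1, had the smallest differences among the entry genes matched by symbol. CDC25C was at -1.09, -1.60, -1.74 and -1.23 in the normals and at -2.08, 0.01 and 1.49 in the lowest, median and highest tumor, a difference of 1.34 ± 0.373 (limma adjusted p = 0.00196) with 26 of 29 tumors above every normal. CDC25B was at -0.88, -0.21, -0.51 and -0.11 in the normals and from -1.91 through 0.13 to 1.59 in the tumors. Its groups overlapped in 9 tumors, and its difference of 0.52 ± 0.391 (95% interval -0.27 to 1.32; limma adjusted p = 0.233) did not pass the test. CCNB1, the cyclin B1 gene read through its identifier, gave a like picture, with -0.21, -0.77, -0.72 and -0.41 in the normals and -2.24, 0.06 and 1.61 in the tumors. The CCNB1 difference was 0.58 ± 0.364 (95% interval -0.16 to 1.32; limma adjusted p = 0.152), and it was not called.

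All 8 kinases rose. PLK1, which drives centrosome maturation, spindle assembly and exit, was at -2.31, -2.97, -3.05 and -3.20 in the normals and at -0.77, 0.22 and 1.24 in the lowest, median and highest tumor. No tumor came near a normal, and the rise of 3.08 ± 0.305 was the kinase group's largest (limma adjusted p = 6.56e-11). The Aurora kinases AURKA and AURKB rose by amounts that differed by less than their SEs. AURKA, the spindle pole kinase, was at -1.34, -1.59, -1.47 and -1.30 in the normals and ran from -1.38 through 0.19 to 1.25 in the tumors, a rise of 1.54 ± 0.302 (limma adjusted p = 3.48e-05). AURKB, the kinase of the chromosomal passenger complex, was at -1.38, -1.47, -1.87 and -1.24 in the normals and ran from -1.54 through 0.07 to 1.47, a rise of 1.58 ± 0.307 (limma adjusted p = 2.83e-05). In both genes 28 of 29 tumors were above every normal, and the exception was tumor 2 in AURKA and tumor Za in AURKB.

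BUB1, a kinase of the spindle checkpoint that holds back anaphase until chromosomes are attached, was at -1.21, -1.85, -2.28 and -1.97 in the normals and at -2.83, 0.27 and 1.41 in the lowest, median and highest tumor. It rose by 1.93 ± 0.391 (limma adjusted p = 5.31e-05), and its 1 tumor below the highest normal lay below all of them. PLK4, the kinase that sets centriole number, was at -0.52, -1.37, -1.45 and -1.80 in the normals and ran from -1.77 through 0.02 to 1.23. PLK4 rose by 1.31 ± 0.377 (limma adjusted p = 0.00248), with normal A above 7 of the 29 tumors. The checkpoint kinase TTK rose by 2.59, MELK by 2.25 and the centrosome kinase NEK2 by 1.49 on the log2 scale, each with 28 of 29 tumors above every normal.

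The chromosomal passenger complex corrects faulty attachments and later steers cytokinesis, and its 3 non-kinase subunits measured all rose. BIRC5, the survivin gene, was at -2.42, -2.50, -2.90 and -3.64 in the normals and at -1.56, 0.07 and 2.23 in the lowest, median and highest tumor, without overlap. The rise of BIRC5 was 3.09 ± 0.367, or 8.5-fold (limma adjusted p = 4.28e-09). CDCA8, the borealin gene, rose by 2.75 ± 0.443 (limma adjusted p = 1.53e-06). INCENP, the scaffold of the complex, had almost the same value in all normals, -1.46 to -1.34, and rose by 1.44 ± 0.240 (limma adjusted p = 2.87e-06) with every tumor above every normal.

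The kinetochore is the protein plate on the centromere that holds spindle microtubules, and its 5 genes rose. CENPA, the histone variant that marks the centromere, was at -2.26, -3.44, -3.77 and -2.66 in the normals and ran from -2.29 through 0.16 to 1.74 in the tumors, a rise of 3.18 ± 0.384 or 9.06-fold (limma adjusted p = 5.98e-09). NDC80, which with SPC24 forms part of the complex that grips microtubules, was at -1.70, -2.71, -2.48 and -2.13 in the normals and ran from -2.78 through 0.08 to 1.68. NDC80 rose by 2.18 ± 0.419 (limma adjusted p = 2.52e-05), SPC24 by 2.40 and CENPN by 2.30 on the log2 scale. In these 4 genes the only tumor at or below a normal was tumor 2.

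CENPM was the exception among the kinetochore genes. This gene of the inner kinetochore was at -0.80, -1.99, -0.75 and -0.89 in the normals and at -3.10, 0.08 and 1.37 in the lowest, median and highest tumor. It rose by 1.13 ± 0.435 (limma adjusted p = 0.0209), the least of the 35 called. The call was lost in the DESeq-normalized table, where the difference was 0.83 (limma adjusted p = 0.0877), and without normal B, where it was 0.84 (limma adjusted p = 0.13).

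The spindle group is the largest, and all 11 of its genes rose, with a median of 2.50 on the log2 scale. TPX2, which activates AURKA and nucleates microtubules near chromosomes, was at -2.70, -3.35, -3.74 and -3.27 in the normals and at -2.53, 0.07 and 1.14 in the lowest, median and highest tumor. It did not overlap and rose by 3.31 ± 0.353, or 9.90-fold (limma adjusted p = 3.77e-10). KIF2C, a kinesin that takes microtubules apart at their ends, was at -2.67, -3.21, -3.11 and -3.31 in the normals and ran from -1.76 through 0.05 to 1.17. Its rise of 3.05 ± 0.334 also came without overlap (limma adjusted p = 7.14e-10).

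The other spindle genes ranged from 1.32 to 3.08. DLGAP5, which stabilizes kinetochore fibers, rose by 3.08, PRC1, which bundles the central spindle, by 2.91 and KIF20A, a kinesin of cytokinesis, by 2.88. KIF22, a kinesin on chromosome arms, rose by 2.50, HMMR by 2.25, CKAP2 by 2.00, the centriole gene STIL by 1.88 and the minus-end-directed motor KIFC1 by 1.53 on the log2 scale. KIF18A, a kinesin that damps chromosome movements, was at -0.77, -1.05, -1.21 and -1.44 in the normals and ran from -0.98 through 0.02 to 1.68 in the tumors. KIF18A had the smallest rise of the group, 1.32 ± 0.308 (limma adjusted p = 0.000304), with 28 of 29 tumors above every normal.

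Chromatid and exit genes rose without exception. TOP2A, the topoisomerase that untangles sister DNA and the target of several chemotherapy drugs, had the largest difference of the 36. It was at -3.10, -3.95, -4.70 and -4.26 in the normals and at -2.66, 0.10 and 1.25 in the lowest, median and highest tumor, a rise of 3.96 ± 0.407, or 15.5-fold, without overlap (limma adjusted p = 1.57e-10). CDCA5, the sororin gene that keeps sister chromatids together, rose by 1.44 ± 0.508 (limma adjusted p = 0.0121). CDC20, which activates the anaphase-promoting complex, was at -1.94, -2.07, -2.21 and -3.38 in the normals and ran from -1.03 through 0.18 to 1.46 in the tumors, a rise of 2.59 ± 0.287 (limma adjusted p = 8.82e-10). UBE2C, a ubiquitin-conjugating enzyme of that complex, was at -1.92, -2.62, -3.69 and -2.61 in the normals and ran from -3.02 through 0.12 to 1.40.

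UBE2C rose by 2.74 ± 0.413, or 6.68-fold (limma adjusted p = 4.90e-07), and 28 of 29 tumors were above every normal. CDC20 did not overlap. PTTG1, the securin gene read through its identifier, holds separase in check until anaphase. It was at -2.22, -3.11, -3.43 and -2.55 in the normals and at -2.18, 0.12 and 1.73 in the lowest, median and highest tumor. It rose by 2.89 ± 0.433, or 7.42-fold (limma adjusted p = 4.35e-07), without overlap.

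**Figure D2:**
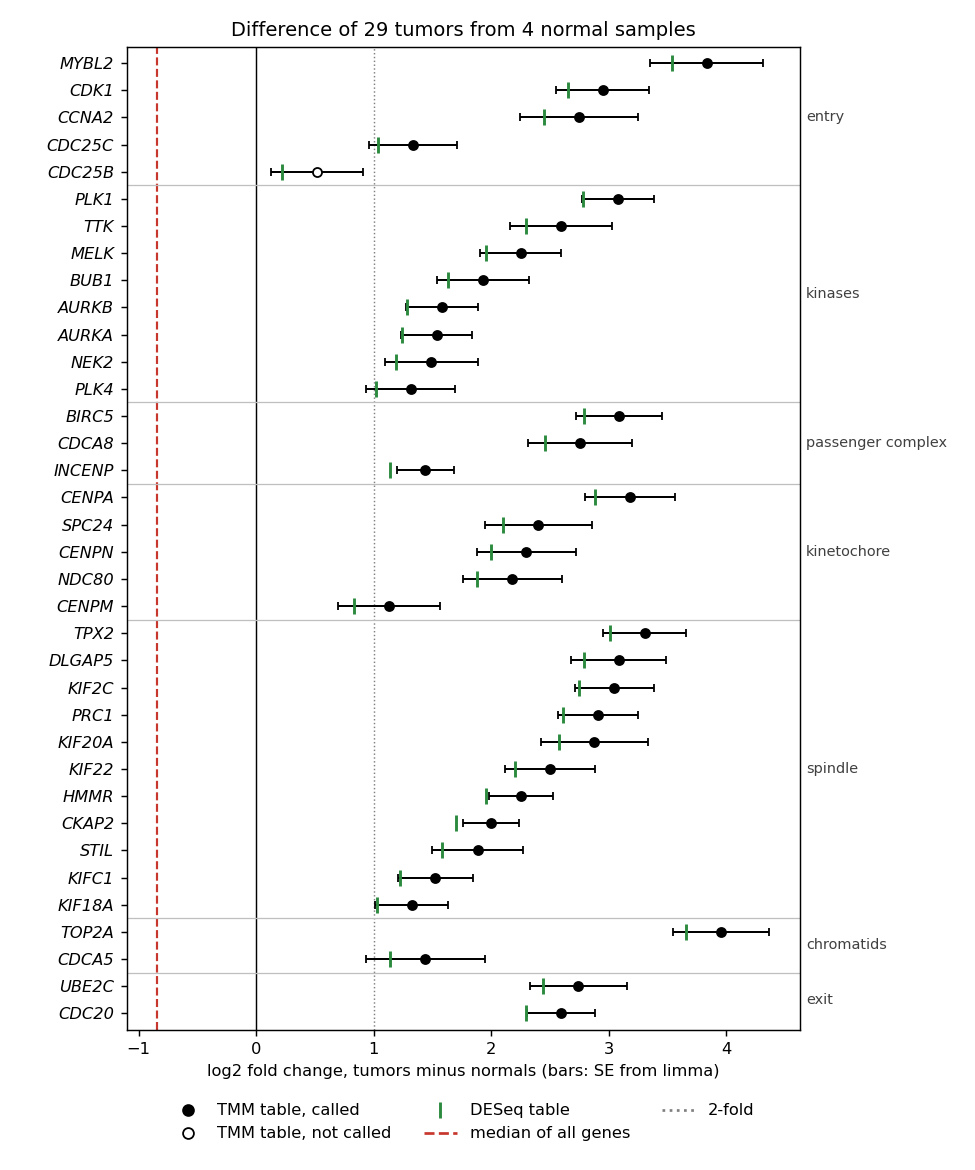
Log2 fold change of tumors minus normals (horizontal axis) for the 36 mitosis genes (vertical axis, grouped by role), as circles with the SE from limma in the TMM table (filled where called) and as green bars in the DESeq table, beside the median of all genes (dashed). The values run from 0.52 in CDC25B to 3.96 in TOP2A, and all lie right of the median of all genes at -0.84.

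In 11 of the 36 genes every tumor was above every normal, against 7.63% of all genes tested. In a further 21 genes 28 of 29 tumors were, and without tumor 2 the count of genes without overlap was 30 of 36, against 8.09% of all genes. Normal A was the highest normal in 30 of the 36 genes, with a median value of -1.89 over them. Normals B, C and D had medians of -2.42, -2.50 and -2.36, and normal C was the lowest in 21 genes. The normals therefore differed by less than 1 on the log2 scale in their medians, against a tumor-to-normal median of 2.35. How often normal A was the highest or normal C the lowest normal over all genes was not counted.

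Among the tumors, the level of the whole group varied from dog to dog. The median value over the 36 genes was highest in tumor 18 at 1.26, followed by Mis at 0.73 and tumor 1 at 0.72, and lowest in tumor 2 at -2.26, followed by Za at -0.96 and tumor 11 at -0.61. Tumor 18 was the highest tumor in 24 of the 36 genes, against 9.75% of the 14638 genes without a shared lowest value. All 36 were above every normal in tumor 18, as they were in others, among them the lower tumors Sp and Po. It also had the most genes at a shared lowest value, 8175, and the lowest endothelial marker median, -2.18; their part in its mitosis values was not tested.

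**Figure D3:**
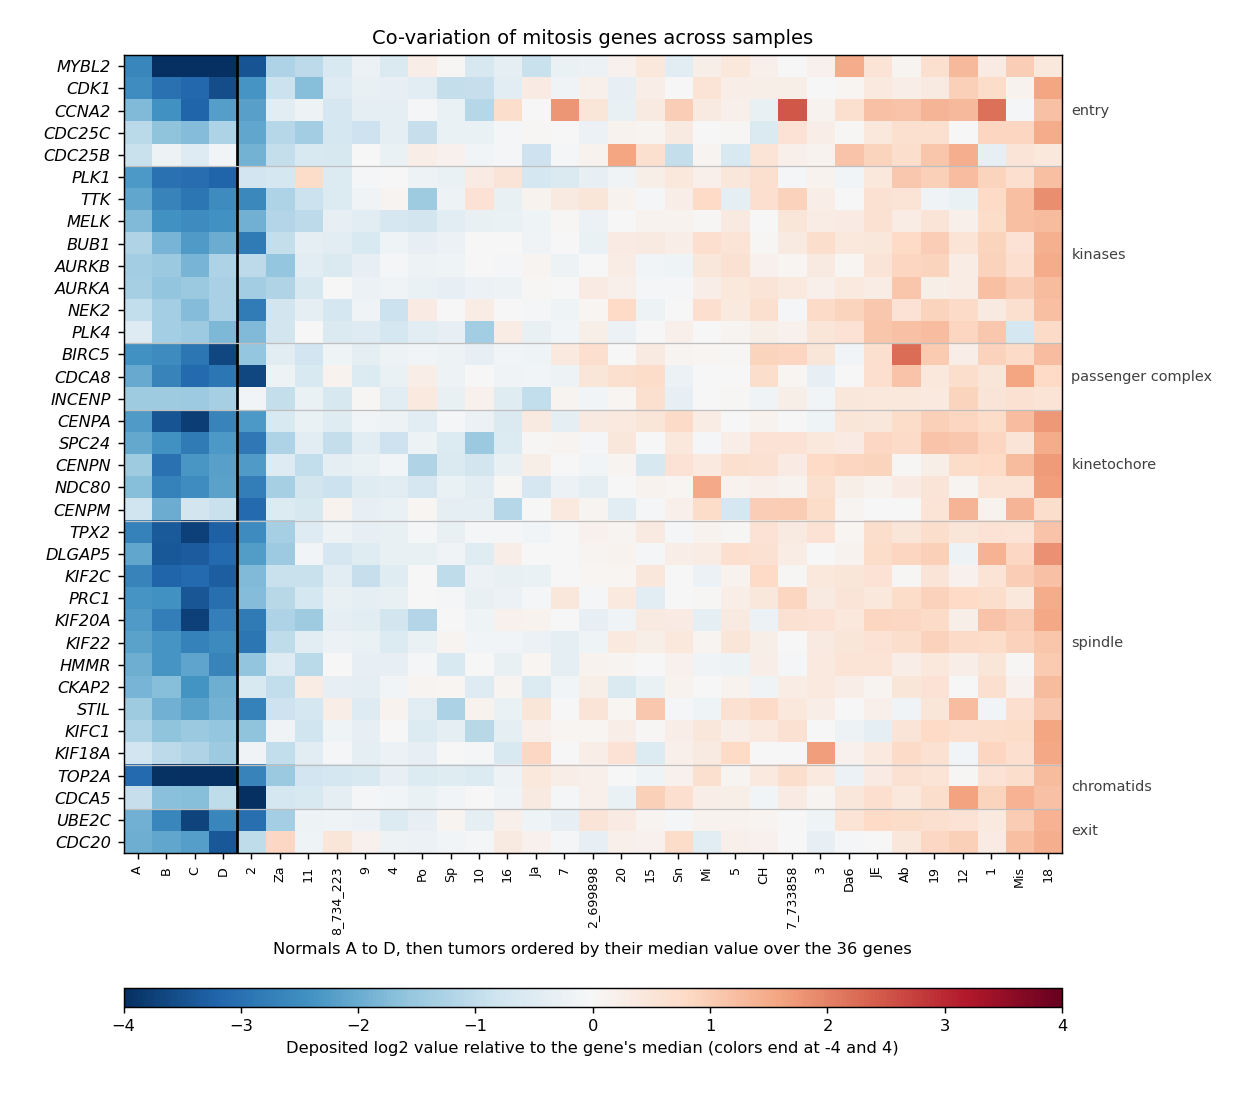
Deposited log2 value (color) of the 36 mitosis genes (vertical axis, grouped by role) in normals A to D and in 29 tumors ordered by their median over these genes (horizontal axis). The normals and tumor 2 are blue in nearly every gene, and tumor 18 at the right edge is red in all, its lowest gene being at 0.42.

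Tumor 2 stood apart from the other 28. It was the lowest tumor in 32 of the 36 genes, against 4.15% of genes without a shared lowest value, and its median of -2.26 was within the range of the normals' medians. It lay at or below the highest normal in 23 genes, CDC25B among them, and below all normals in 12, whereas 12.4% of all genes called higher in tumors lay at or below the highest normal in it. In the other tumors 31 to 36 of the mitosis genes were above every normal, against 13 in tumor 2. Its smooth muscle marker median was -0.55 and its urothelial marker median -0.41, both within the range of the tumors, although EPCAM, at -0.90, was the lowest of the tumors. It had 7036 genes at a shared lowest value. The genes called higher include mitosis genes and were called with tumor 2 among the tumors. Of them, 87.6% were above every normal in tumor 2, the complement of the 12.4% above. In the other tumors the share was 88.6% to 97.4%. The part of these values in the mitosis levels of tumor 2 was not tested.

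The genes were not low in tumor 2 to the same degree. CDCA5 was at -4.32 against -0.70 in the next lowest tumor and -1.71 in the lowest normal. CDCA8 was at -3.64 against -0.60, MYBL2 at -3.47 against -1.22, CENPM at -3.10 against -1.14 and NEK2 at -2.79 against -0.87. In 18 of the 36 genes tumor 2 was more than 2-fold below the next lowest tumor. PLK1 in tumor 2, at -0.77, was next to tumor Za at -0.72. In INCENP (-0.11), KIF18A (-0.14), CKAP2 (-0.60) and AURKB (-1.06) tumor 2 was not the lowest tumor, and all 4 were above every normal in it.

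**Figure D4:**
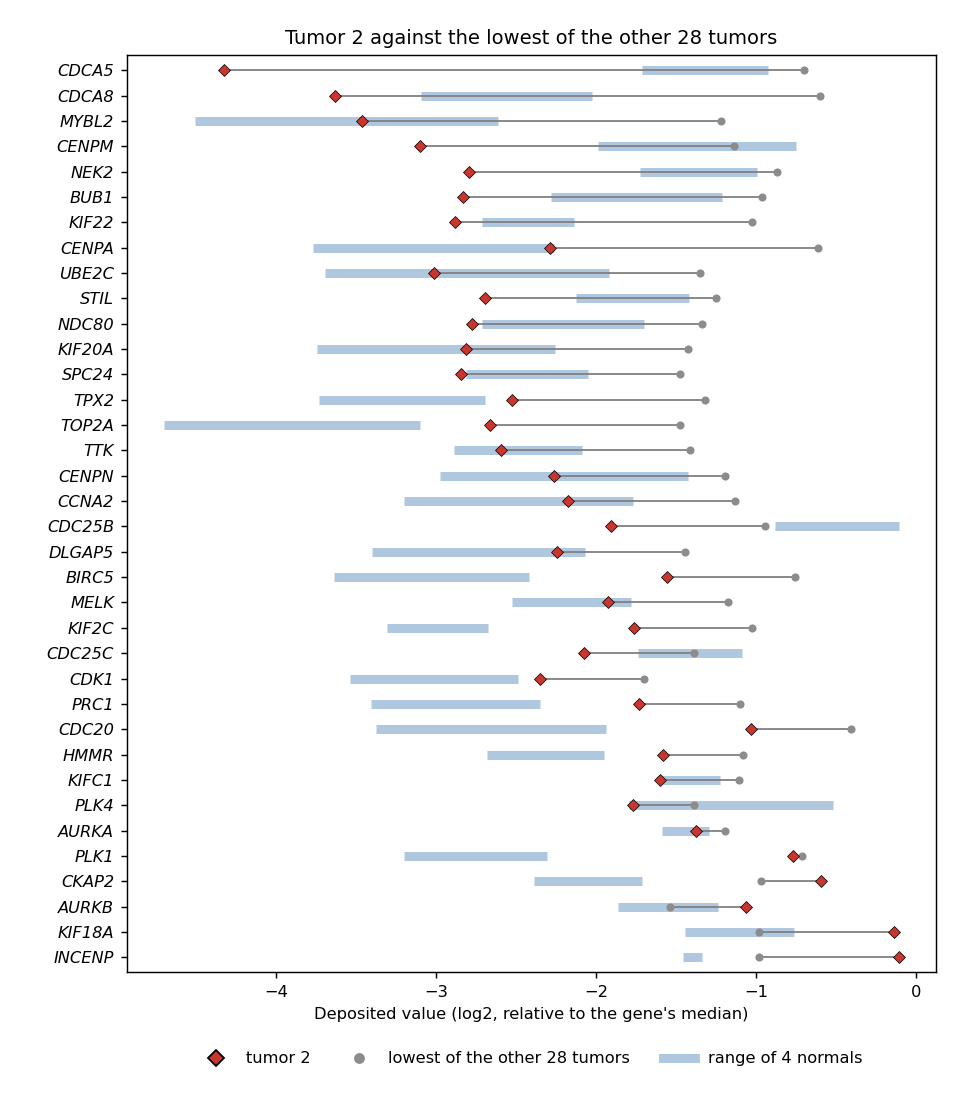
Deposited log2 value relative to the median of each gene (horizontal axis) in tumor 2 (red diamond) and in the lowest of the other 28 tumors (gray dot), with the range of the 4 normals as a blue band, for the 36 mitosis genes ordered by the gap between the tumors (vertical axis). The gap runs from 3.62 in CDCA5 to -0.88 in INCENP, where tumor 2 was above the lowest other tumor.

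Inhibitors and regulators of the cell cycle, from lists chosen by name, were read beside this. CDKN1A, the p21 inhibitor of cyclin-dependent kinases, was at -0.69 to -0.09 in the normals and at -0.64, 0.05 and 2.22 in the lowest, median and highest tumor, and its difference of 0.54 ± 0.326 was not called (limma adjusted p = 0.141). Tumor 2 was the highest, and the next highest tumor was at 1.31. RBL2, a pocket protein of the complex that silences late cell cycle genes, was likewise highest in tumor 2, at 1.23 against at most 0.61 in the others. RBL2, RB1 and E2F7 were singled out after their values were seen, and tumor 2 was the highest tumor in 4.53% of genes without a shared lowest value. The other pocket protein genes, RBL1 at -0.07 and RB1 at -0.14, were 12th and 9th from the lowest of the 29 tumors in it, and E2F2, E2F7 and E2F8 were lowest in it. CDKN2C, the p18 inhibitor, was lowest in tumor 2 at -2.22, and over the groups it rose by 1.15 ± 0.411 (limma adjusted p = 0.0132), a call lost with the DESeq-normalized values (0.85 ± 0.409; limma adjusted p = 0.0645). Of the 9 regulators found of 14 listed, E2F8, E2F2 and LIN9 rose by 2.31, 1.72 and 1.46, none fell and 6 were not called; 17.6% of genes without a shared lowest value were called higher.

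Within the 29 tumors the mitosis genes varied together. Over the 630 pairs of genes the median Pearson's r was 0.75, every pair was positive and 565 were over 0.5. Without tumor 2 the median was 0.65, every pair was still positive, and 493 were over 0.5. The highest value, 0.96, was that of the neighbors KIF20A and CDC25C, and the lowest, 0.20, that of CDC20 and KIF18A. These are descriptions of 29 libraries that share the same centring per gene and a normalization per library, and genes are not independent of each other. Against the mean of the other 35 genes, TPX2 and BUB1 were the most typical, with r of 0.96 each, and INCENP (0.55), CDC20 (0.58) and KIF18A (0.59) the least. Without tumor 2 the order changed: MELK was highest with 0.94, CDC20 (0.43), CDC25B (0.53) and CCNA2 (0.59) were lowest, and INCENP and KIF18A stood at 0.69 and 0.70. The mean over the 36 genes had an r of 0.24 with the number of genes at a shared lowest value in a tumor, and of 0.38 without tumor 2.

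A second comparison regressed each gene on ANLN, a cytokinesis gene outside the 42, over the tumors alone. The slope was positive in all 36 genes, and 27 were called (limma adjusted p of at most 0.05), against 0.531% of 24088 genes. The steepest were CDCA5 with 0.99 ± 0.155 (log2 per log2 of ANLN, ± SE; limma adjusted p = 0.000778), SPC24 with 0.88 and CENPM with 0.87. The 9 genes not called were AURKA, AURKB, PLK1, CDC20, KIF18A, KIFC1, CKAP2, CDC25B and INCENP. With the share of genes at a shared lowest value as a covariate 22 were called, against 0.511% of all genes, and 24 with the DESeq-normalized values, against 0.519%. This result rested on tumor 2: without it no mitosis gene was called with limma, and no gene at all (0.0%), although all slopes stayed positive, with a median of 0.45 in place of 0.64. The slope of CDCA5 fell to 0.48 ± 0.166 (limma adjusted p = 0.416), and the steepest were then SPC24 with 0.76, CENPM with 0.65 and CCNA2 with 0.65. At an unadjusted p under 0.05, 26 of the 36 had a positive slope without it, against 3.22% of 24071 genes.

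With NCAPG, a condensin subunit and the next gene of the order, in place of ANLN, 33 of the 36 were called against 0.988% of all genes, all but CDC20, KIF18A and INCENP. Without tumor 2, a combination added after the data were seen, 29 of 36 slopes on NCAPG were called against 1.3% of all genes. CCNA2, CDC20, CENPM, CDCA8, CDC25B, INCENP and STIL were then not called. TOP2A kept a slope of 0.84 ± 0.111 (limma adjusted p = 5.85e-05) and TPX2 kept a slope of 0.67 ± 0.0959 (limma adjusted p = 0.00015).

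The 10 genes outside the 42 most like the group, by Pearson's r with the mean of the 36 over 29 tumors among 11998 genes with a symbol, were KIF15, SGO1, KIF14, CKAP2L, SHCBP1, FANCD2, NCAPG, CCNF, ARHGEF39 and DSN1, with r from 0.96 to 0.92. All 10 were called higher in tumors, by 1.67 to 3.66 on the log2 scale, against 17.6% of genes without a shared lowest value; they were picked for their likeness to a group called higher. Without tumor 2 the r of KIF15 was 0.93 and that of SGO1 0.91, the highest of the 11998 in that order.

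Further mitosis genes, from 6 lists that hold 103 genes, were found in 67 cases. Of these, 39 rose, none fell and 28 were not called, against 10.7% of all genes and 17.6% of those without a shared lowest value called higher. Of the 28, 19 were higher with a limma adjusted p of at most 0.05 but by less than 2-fold. The median of the 67 was 1.16 on the log2 scale against 2.35 for the 36. By the DESeq-normalized values 30 rose, against 5.62% of all genes, and 1, SKA2, fell. The list of condensins, which compact chromosomes, and cohesins had the highest median of the 6, 1.99, with NCAPG at 3.66 ± 0.410, NCAPH at 2.48 ± 0.325 and SMC2 at 2.46 ± 0.267. Kinesins and spindle genes rose in 9 of 12 cases, among them KIF15 by 2.88 ± 0.359, SHCBP1 by 2.69 ± 0.379 and the spindle pole gene ASPM by 2.29 ± 0.377. Genes of mitotic entry rose in 8 of 9 cases, or in 6 by the DESeq-normalized values, with CCNF at 3.32 ± 0.391 and GTSE1 at 2.78 ± 0.367.

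In the remaining mitosis lists the calls were mixed. Kinetochore and centromere genes rose in 10 of 18 cases, but in 5 by the DESeq-normalized values, led by HJURP, the chaperone that loads CENPA, at 3.07 ± 0.494 and by DSN1 at 2.49 ± 0.375. SKA2, singled out after its values were seen, was the only gene of the 67 with a negative difference. It was not called at -0.96 ± 0.195, and it was called lower by the DESeq-normalized values, at -1.25 ± 0.198 (limma adjusted p = 1.07e-06). The checkpoint gene MAD2L1 rose by 2.34 ± 0.331, KNTC1 by 1.88 ± 0.322 and ZW10 by 1.09 ± 0.187, whereas MAD1L1 did not pass (0.37 ± 0.172). The call of ZW10 was lost with the DESeq-normalized values (0.79 ± 0.184). In the list of the anaphase-promoting complex and chromatid separation 3 of 16 rose, a share near the 17.6% of genes without a shared lowest value, namely SGO1 by 1.82, FBXO5 by 1.34 and UBE2S by 1.07. The call of UBE2S was lost with the DESeq-normalized values. The other 13, mostly subunits of the complex itself, had differences of 0.00 to 0.93 and were not called. Of these 13, 11 were higher with a limma adjusted p of at most 0.05 and missed only the 2-fold threshold. Tumor 2 was the lowest tumor in 32 of the 67 genes but in 3 of these 16, SGO1, FBXO5 and UBE2S.

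**Figure D5:**
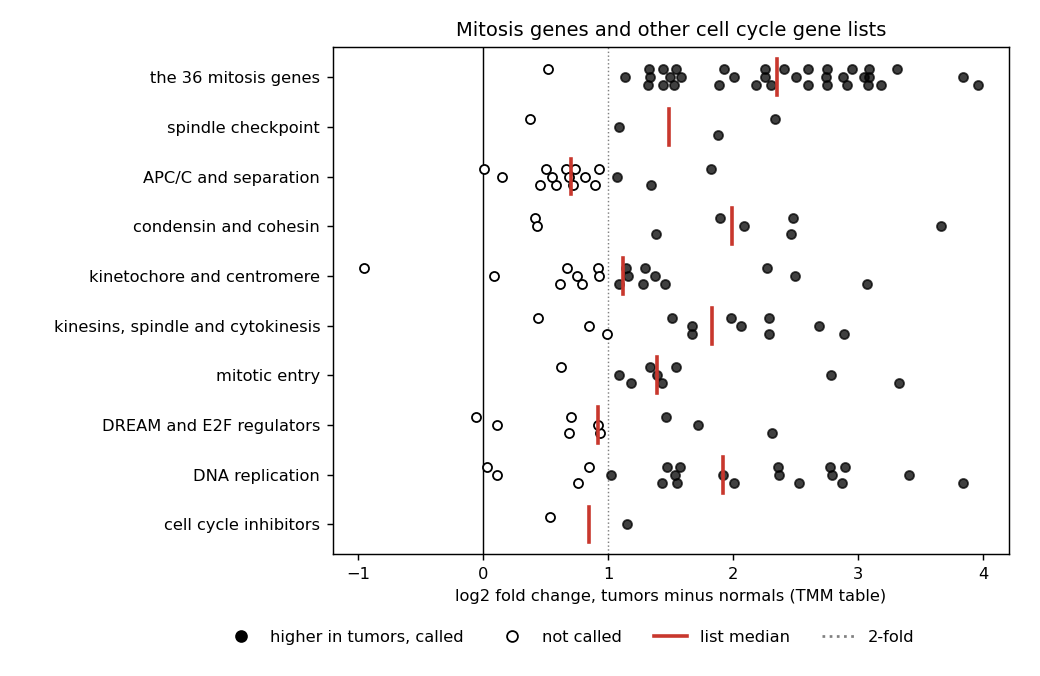
Log2 fold change of tumors minus normals (horizontal axis) of single genes, filled where called higher and open where not, for the 36 mitosis genes and for 9 further cell cycle lists (vertical axis), with the list median as a red bar. The median is 2.35 for the mitosis genes, 0.70 for the anaphase-promoting complex list and 1.92 for DNA replication.

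DNA replication genes, which act in S phase before mitosis, moved alongside. Of 21 found of 27 listed, 17 rose, against 17.6% of genes without a shared lowest value, and none fell. Their median was 1.92, and thymidine kinase TK1 at 3.84 ± 0.480 and RRM2 at 3.40 ± 0.371 led. The mean of this list had an r of 0.96 with that of the mitosis genes over the tumors and of 0.95 without tumor 2, and tumor 2 was the lowest tumor in 16 of the 21. Marker lists of single cell types had r with the mitosis mean from -0.43 for macrophage markers to 0.18 for urothelial markers (-0.63 and 0.15 without tumor 2).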

How the data were processed

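Per the labels, total RNA was depleted of ribosomal RNA, and Illumina read pairs were aligned to CanFam 3.1 with COBWeb in Strand NGS. The authors normalized gene levels separately by TMM and by DESeq (named in the submitters' processing notes). The deposited tables hold log2 values minus each gene's median over 33 samples. They are not counts: the edgeR and DESeq2 tests of the study could not be run on them, and total counts are unknown, so precision rests on the spread between dogs. The last line of each analysed table was incomplete and was left out. Where samples share a gene's lowest value, this was read from the values as a floor.

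Genes were tested if above a shared lowest value in at least 4 samples or without one, over all genes in R 4.3.3 by limma 3.58.1 (a linear model with moderated variances and a trend), with Benjamini-Hochberg adjustment. A call needed an adjusted p of at most 0.05 and, between groups, 2-fold. The second fit regressed each gene on ANLN in the tumors, ANLN being the first gene of a written order present in the table. Scripts were tested on simulated data. Python 3.11.15, numpy 2.4.6, pandas 2.3.3 and matplotlib 3.10.9 were used. A list's level in a sample is the median of its values, and its mean over tumors is of z scores.

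The 42 genes and all lists were chosen with earlier results of these data known. Every mitosis gene is named. Full values are given for CDK1, CCNB1, CCNA2, AURKA, AURKB, PLK1, TOP2A, BIRC5, CDC20, UBE2C, TPX2, BUB1, NDC80, CENPA, KIF2C, PTTG1 and MYBL2 and for the 5 largest and 5 lowest fold changes; up to 4 genes per other list are named, by size of change. Others were named after their values were seen: SKA2, RBL2, RB1 and E2F7, and KRT19 because its call differed between the tables. Leaving out tumor 2 was an alternative chosen after seeing the data.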

Additional observations from a re-analysis of the deposited data

Results flagged for a closer look

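In the normals, 2 of 38 gene groups held a sample far from the others, where chance gives about 1 in 20. CENPM in normal B was at -1.99, with the nearest normal at -0.89 and the highest at -0.75. MELK in normal A was at -1.78, with the nearest normal at -2.42 and the lowest at -2.53.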

How the results depend on the processing

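The depth of a library is unknown, and with 4 normals each of them weighs on every fold change. Across the alternatives for tumors against normals (DESeq table, no trend, a weight per group, other filters, centred samples, each normal left out, no tumor 2), 454 single-gene fold changes kept their direction and their side of the threshold; another 2 did not, both of them CENPM, at 0.83 in the DESeq table and 0.84 without normal B. The number of mitosis genes called was 34 or 35 throughout, between 34 and 35 with each normal or tumor 2 left out. In the DESeq table the median fold change moved from 2.35 to 2.05, and the number of all genes called higher from 2615 to 1377, which took the share of higher calls from 18.9% to 10.3%. Without a fold-change threshold 5603 genes were higher, and with the stricter filter of 17 samples, which tests fewer genes, 5543 were lower in place of 11206.

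For slopes on ANLN, the 27 calls became 24 in the DESeq table, 26 without the trend and 22 with the share of genes at the lowest value as a covariate; with tumors 2 and JE left out, or tumor 2 alone, there were 0, over the mitosis genes and over all genes (128 before). At an unadjusted p under 0.05, 24 of the 36 had positive slopes without tumors 2 and JE, against 2.95% of all genes. With NCAPG 238 genes were called in all, and 314 without tumor 2. Over single genes 67 slopes lost their call, 12 gained one and none changed sign. The cause was not tested. No paired analysis was possible because normals and tumors come from different dogs and share no replicate label.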
